A study of Mus musculus with 9 samples.

Results

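The genes described here encode the machinery that copies the genome and divides the cell, together with the cyclins, kinases and inhibitors that decide whether a cell enters that programme. They were taken from a list of 53 named genes, and each gene was represented by the brightest probe set that the platform annotation ties to that gene alone. Such a probe set was found for 52 of the 53, out of 18193 genes measured on the arrays. Ccnb1, which encodes cyclin B1, was the exception and has no value. By role, 11 measured genes act in replication licensing, 9 at the replication fork, 4 in nucleotide supply, 14 in the control of G1 and 14 in G2 and mitosis.

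Values came from 9 microarrays of mouse bone marrow-derived macrophages, with 3 arrays in each of 3 groups. Marrow was from BALB/c mice aged 8 to 10 weeks, was grown for 7 days with macrophage colony-stimulating factor (M-CSF), a growth factor that drives macrophages to divide and differentiate, and was then held overnight in 1% serum with M-CSF still present. Untreated cells received no addition named in the labels. TNC + vehicle cells were held in 0.1% DMSO for 1 h, and tenascin C (TNC), a glycoprotein of the extracellular matrix made as a recombinant protein, was then added at 2 µg/ml for 6 h. TNC + TLR4i cells received 3 µM TAK-242, a small molecule that blocks signalling by Toll-like receptor 4 (TLR4), for 1 h ahead of the same TNC treatment. The labels give the untreated cells no vehicle, and no array here carried vehicle or inhibitor without TNC, or an endotoxin control. TNC and vehicle therefore cannot be told apart in the contrast with untreated cells. The labels also name no DMSO for the TNC + TLR4i cells. A difference in vehicle between these and the TNC + vehicle cells cannot be told apart from the inhibitor. The arrays of a group are called biological replicates, without saying that they came from separate mice, and p-values measure the spread between these arrays.

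Replication is licensed in G1, when the origin recognition complex, CDC6 and CDT1 load the MCM2 to MCM7 helicase onto DNA, and geminin later binds CDT1 to prevent a repeat of that step. Passage from G1 into S phase depends on cyclin D and cyclin E kinases, which inactivate the retinoblastoma protein and release E2F transcription factors, while inhibitors of the CIP/KIP and INK4 families restrain those kinases. Genes for S phase are known E2F targets, and many genes for G2 and mitosis are known to be controlled through CCAAT boxes and the cell cycle genes homology region (CHR). Macrophages in M-CSF are known to cycle, and bacterial ligands of TLR4 are known to stop that growth.

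The values are log2 signals, so that a difference of 1 is a doubling, and a value near 6 lies at the floor of these arrays. Array medians ran from 6.72 to 6.74. Of the 52 cell cycle genes, 49 had a mean over the 9 arrays above the median probe set, and the dim ones were Cdc6, Ccne2 and Tyms. All 8 macrophage markers on the list used were measured and bright, with Csf1r at 14.16 and Lyz2 at 14.57 in untreated cells, and of these only Fcgr1 and Cd14 were called in a comparison. The 6 fibroblast markers were also well above the floor in every group, with a mean level of 10.05 to 10.49 per array and Col1a2 at 13.28 in untreated cells. Lists for progenitors, neutrophil precursors, erythroid cells and lymphocytes averaged 6.41 to 7.08 in every array, and only Epor among their members was called in a comparison. In bulk RNA, fewer cycling cells and less RNA per cell cannot be told apart.

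A gene was called when limma gave an adjusted p under 0.05 and the change was at least 1.5-fold, or 0.58 on the log2 scale. With TNC + vehicle, 7 of the 52 genes fell and 2 rose against untreated cells. Across all 18193 genes, 4.05% fell and 3.74% rose. The genes that fell were Mcm7, Cdt1, Gmnn, E2f1, Cdkn1b, Cdkn2c and Aurkb, and the genes that rose were Cdkn1a and Mki67. The median difference was -0.13 over the 52 genes and 0.01 over all genes. Most other differences were small, and 43 of the 52 genes were not called. With no minimum fold, 19 genes were lower and 7 higher at an adjusted p under 0.05, against 16.0% lower and 12.1% higher of all genes. The groups of arrays did not overlap for 23 genes that were lower and 11 that were higher, against 22.6% and 19.7% of all genes.

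In TNC + TLR4i against TNC + vehicle, 7 genes rose, namely Mcm7, Cdt1, Gmnn, E2f1, Cdkn1b, Cdkn2c and Aurkb, and 2 fell, namely Cdkn1a and Mki67. Of all genes, 4.25% rose and 4.05% fell in that comparison. Under cyclic loess, another normalization, the split was 6 higher and 4 lower. The median difference was 0.16 over the 52 genes and 0.00 over all genes. With no minimum fold, 20 genes were higher and 6 lower at an adjusted p under 0.05, against 17.1% and 11.4% of all genes. The groups did not overlap for 26 genes that were higher and 9 that were lower, against 23.8% and 18.4%. Both comparisons use the same 3 TNC + vehicle arrays, so opposite signs are partly built in. The comparison that does not use those arrays is TNC + TLR4i against untreated, and there limma called 0 of the 52 genes, against 0.258% of all genes. At an unadjusted p under 0.05 there were 6 higher genes and 2 lower genes, where 4.83% and 4.63% of all genes met that limit. None reached an adjusted p under 0.05, as 0.803% of all genes did. The groups did not overlap for 7 genes that were higher and 5 that were lower, against 8.61% and 6.56% of all genes. The differences ran from -0.36 for Ccnd3 to 0.23 for Cdt1 and Rrm2, and their median was 0.01.

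**Figure D1:**
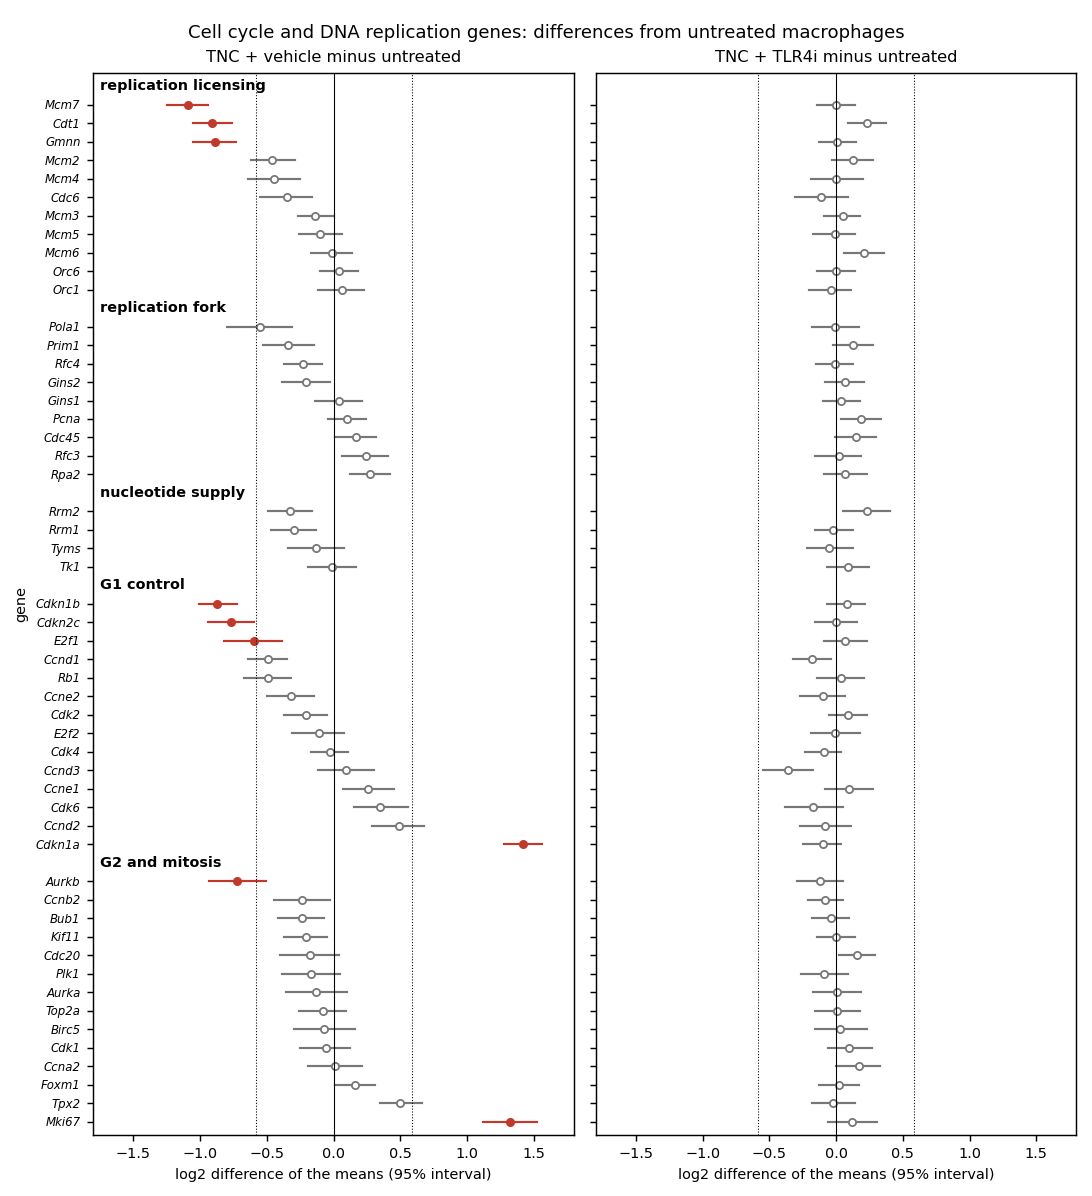
Difference in log2 signal from untreated cells for each of the 52 genes, with its 95% interval from limma, for TNC + vehicle on the left and TNC + TLR4i on the right, with genes grouped by role and sorted by the TNC + vehicle difference. Filled red points are called, and the dotted lines mark a 1.5-fold change. On the left 7 genes lie at or beyond the lower line and 2 beyond the upper one, and on the right the points lie between -0.36 and 0.23.

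Among the licensing genes, 3 of 11 fell with TNC + vehicle and none rose, where 4.05% and 3.74% of all genes did. The median difference of the 11 was -0.35. The changed genes were a helicase subunit, the loader that brings the helicase to origins, and the protein that holds this loader in check. Mcm7, a subunit of the replicative helicase, read 9.55, 9.63 and 9.56 in untreated cells, 8.56, 8.39 and 8.52 with TNC + vehicle, and 9.60, 9.53 and 9.61 with TNC + TLR4i. All 3 TNC + vehicle values were lower than the 6 others. Mcm7 fell by 1.09 ± 0.07 (SE) against untreated, or 2.13-fold, with an adjusted p of 4.66e-07 in limma. Against TNC + vehicle it was 1.09 ± 0.07 higher with the inhibitor (adjusted p = 3.11e-07, limma). With the inhibitor the difference from untreated was 0.00, with a 95% interval of -0.14 to 0.14.

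Cdt1, the licensing factor that recruits the helicase, read 9.96, 10.03 and 10.04 in untreated cells, 9.08, 9.08 and 9.16 with TNC + vehicle, and 10.22, 10.21 and 10.29 with TNC + TLR4i. Its TNC + vehicle values were the lowest, and its TNC + TLR4i values lay above all untreated values. Cdt1 fell by 0.91 ± 0.06 against untreated, or 1.87-fold (adjusted p = 1.05e-06, limma), and rose by 1.14 ± 0.07 with the inhibitor against TNC + vehicle (adjusted p = 1.15e-07). Its excess over untreated cells in TNC + TLR4i, 0.23, had an adjusted p of 0.214 in limma. Gmnn, which encodes the CDT1 inhibitor geminin, read 9.25, 9.32 and 9.27 in untreated cells, 8.52, 8.31 and 8.33 with TNC + vehicle, and 9.22, 9.33 and 9.31 with TNC + TLR4i. Again TNC + vehicle lay below all others. Gmnn fell by 0.89 ± 0.07 (adjusted p = 3.78e-06, limma), and was 0.90 ± 0.08 higher with the inhibitor than with TNC + vehicle (adjusted p = 3.15e-06).

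None of the remaining helicase genes was called. Mcm2 read 8.64, 8.66 and 8.72 in untreated cells, 8.20, 8.11 and 8.35 with TNC + vehicle, and 8.91, 8.82 and 8.68 with TNC + TLR4i. Mcm4 read 8.58, 8.72 and 8.38, then 8.13, 8.17 and 8.04, then 8.50, 8.70 and 8.49 in the same order. In both genes the TNC + vehicle arrays lay below all others, but the differences from untreated of -0.46 and -0.45 were under the 1.5-fold limit. The other Mcm4 probe set, with a mean of 8.38 against 8.41, gave a smaller difference of -0.17 (adjusted p = 0.0966, limma). Mcm3, Mcm5 and Mcm6 differed from untreated by -0.14, -0.10 and -0.01, with adjusted p-values of 0.155, 0.402 and 0.926 in limma. Mcm6 had dimmer probe sets as well. The brighter of these gave -0.21 against untreated (adjusted p = 0.0331, limma). With the inhibitor against TNC + vehicle it gave 0.39 (adjusted p = 0.00216, limma). The dimmest gave 0.04 and -0.18 in these comparisons. Cdc6, the helicase loading ATPase, read 6.86, 6.51 and 6.55 in untreated cells, 6.27, 6.30 and 6.28 with TNC + vehicle, and 6.59, 6.56 and 6.43 with TNC + TLR4i. It was lowest with TNC + vehicle, at -0.35 from untreated, and near the floor in all groups. The origin recognition subunits Orc1 and Orc6 differed by 0.06 and 0.04. The other Orc1 probe set, with a mean of 6.18 against 6.77, gave -0.19 (adjusted p = 0.184, limma). With the inhibitor against TNC + vehicle it gave 0.30 (adjusted p = 0.024, limma), where the brighter one gave -0.10.

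The promoters of Mcm7 and Mcm6 are shown because both genes encode subunits of the same helicase and only Mcm7 was called. Each window holds the 250 bases before an annotated RefSeq start in build GRCm38.p6, written 5′ to 3′ on the strand of the gene, which is the minus strand for both. Capitals mark the E2F words TTTCCCGC, TTTCGCGC, TTTGCCGC and TTTGGCGC and the word CCAAT, each read on either strand. The Mcm7 window is at chr5:138171884-138172133 and the Mcm6 window at chr1:128359706-128359955.
Mcm7: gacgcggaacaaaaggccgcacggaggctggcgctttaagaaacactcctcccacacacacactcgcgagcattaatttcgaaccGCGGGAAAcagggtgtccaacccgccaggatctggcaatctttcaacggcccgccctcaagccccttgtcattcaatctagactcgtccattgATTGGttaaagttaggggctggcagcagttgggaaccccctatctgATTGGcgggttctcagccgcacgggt
Mcm6: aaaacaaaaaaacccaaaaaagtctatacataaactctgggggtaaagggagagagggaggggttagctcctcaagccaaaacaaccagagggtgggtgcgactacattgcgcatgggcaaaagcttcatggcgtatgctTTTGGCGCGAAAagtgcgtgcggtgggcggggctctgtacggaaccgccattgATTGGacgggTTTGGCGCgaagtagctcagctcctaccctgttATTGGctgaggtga
The Mcm7 window holds 1 E2F word and 2 CCAAT words, while the window at its other listed start holds 1 CCAAT word and no E2F word. The Mcm6 window holds 3 E2F words, of which a pair on opposite strands overlap, and 2 CCAAT words. Among the licensing genes, 9 of 11 had a window, and 5 of their 10 windows held an E2F word, as did 20.0% of the 45 windows of the cell cycle genes together and 1.86% of all 32851 windows. These matches describe letters only.

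At the replication fork, none of the 9 genes was called in any comparison. With TNC + vehicle, 3 were higher and 4 lower at an unadjusted p below 0.05, as were 17.8% and 20.8% of all genes, and differences ran from -0.55 to 0.27, with a median of 0.04. Pola1, the catalytic subunit of DNA polymerase alpha, read 7.73, 7.75 and 7.52 in untreated cells, 7.25, 6.84 and 7.26 with TNC + vehicle, and 7.70, 7.75 and 7.52 with TNC + TLR4i. Signals were lowest with TNC + vehicle, and replicate 2 of that group, at 6.84, was well below the other two. Pola1 stayed just under the fold limit. Without TNC + vehicle replicate 1, without replicate 3 of that group, or without untreated replicate 3, its difference was -0.62 and it was called.

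Prim1, the primase partner of polymerase alpha, read 7.58, 7.80 and 7.71 in untreated cells, 7.46, 7.20 and 7.42 with TNC + vehicle, and 7.81, 7.83 and 7.84 with TNC + TLR4i. Its difference from untreated with TNC + vehicle was -0.34 (adjusted p = 0.0141, limma). Rpa2, which coats single-stranded DNA, went the other way, at 8.01, 8.16 and 8.03 in untreated cells, 8.33, 8.31 and 8.39 with TNC + vehicle, and 8.10, 8.25 and 8.06 with TNC + TLR4i. Here TNC + vehicle was highest, but the difference of 0.27 was under the fold limit. Pcna, the sliding clamp, was bright at 11.70 to 11.82 in untreated cells and 11.84 to 11.88 with TNC + vehicle, a difference of 0.10. The clamp loader subunits Rfc4 and Rfc3 differed by -0.23 and 0.24, and the helicase activators Cdc45, Gins1 and Gins2 by 0.17, 0.04 and -0.21.

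In nucleotide supply, 0 of 4 genes were called in any comparison. With TNC + vehicle 2 were lower at an unadjusted p below 0.05, as were 20.8% of all genes. These 2 encode the subunits of ribonucleotide reductase, the enzyme that makes deoxyribonucleotides. Rrm2 read 7.74, 7.89 and 7.97 in untreated cells, 7.59, 7.49 and 7.54 with TNC + vehicle, and 8.02, 8.03 and 8.22 with TNC + TLR4i. Its groups did not overlap in any comparison, with TNC + vehicle lowest and TNC + TLR4i highest. The difference was -0.33 with TNC + vehicle against untreated and 0.55 with the inhibitor against TNC + vehicle. Rrm1 read 9.19, 9.25 and 9.30 in untreated cells, 8.90, 8.85 and 9.09 with TNC + vehicle, and 9.29, 9.16 and 9.24 with TNC + TLR4i. It was lowest with TNC + vehicle, at -0.30 from untreated. Tyms, of thymidylate synthesis, read 6.10, 5.98 and 6.27, then 5.99, 5.82 and 6.14, then 6.00, 6.08 and 6.13, overlapping at the floor. Tk1, thymidine kinase of the salvage pathway, differed by -0.01.

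**Figure D2:**
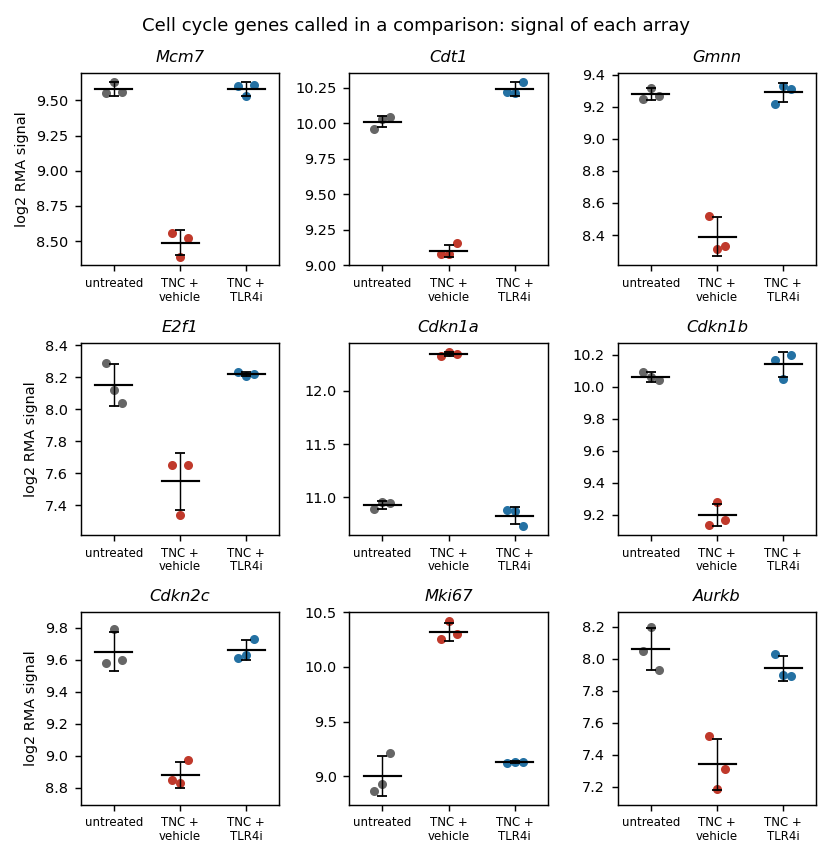
Log2 signal in each array for the 9 genes called in a comparison, with points for arrays, a bar for the group mean and whiskers for the SD (n = 3), on axes that differ between genes and do not start at 0. In every panel the 3 TNC + vehicle arrays lie apart from the 6 others, below them in 7 genes and above them in Cdkn1a and Mki67.

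The G1 genes held both directions: 3 of 14 fell with TNC + vehicle and 1 rose, where 4.05% and 3.74% of all genes did. The median difference was -0.16. Among the kinase inhibitors, the gene for p21 rose and those for p27 and p18 fell. Cdkn1a, which encodes p21, the CIP/KIP inhibitor known as a target of p53, read 10.89, 10.96 and 10.95 in untreated cells, 12.33, 12.37 and 12.35 with TNC + vehicle, and 10.88, 10.87 and 10.73 with TNC + TLR4i. With TNC + vehicle every array was far above the rest. Cdkn1a rose by 1.42 ± 0.06, or 2.67-fold (adjusted p = 3.16e-08, limma), and was 2.87-fold lower with the inhibitor than with TNC + vehicle (adjusted p = 1.44e-08). Its other probe set gave 1.55 and -1.70 in these comparisons.

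Cdkn1b, which encodes p27, the CIP/KIP inhibitor typical of resting cells, read 10.09, 10.06 and 10.04 in untreated cells, 9.14, 9.28 and 9.17 with TNC + vehicle, and 10.17, 10.05 and 10.20 with TNC + TLR4i. The TNC + vehicle arrays lay below all others. Cdkn1b fell by 0.87 ± 0.07 (adjusted p = 1.9e-06, limma), and was 0.94 ± 0.07 higher with the inhibitor than with TNC + vehicle (adjusted p = 1.35e-06). Cdkn2c, which encodes the INK4 inhibitor p18, read 9.58, 9.79 and 9.60, then 8.85, 8.83 and 8.97, then 9.61, 9.63 and 9.73 in the same group order. It too was lowest with TNC + vehicle, and fell by 0.77 ± 0.08 (adjusted p = 1.82e-05, limma), while the inhibitor group was 0.77 ± 0.07 above TNC + vehicle (adjusted p = 5.77e-06). With the inhibitor the difference from untreated was 0.08 for Cdkn1b and 0.00 for Cdkn2c.

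E2f1, the activating transcription factor of S phase entry, read 8.29, 8.12 and 8.04 in untreated cells, 7.65, 7.34 and 7.65 with TNC + vehicle, and 8.23, 8.21 and 8.22 with TNC + TLR4i. It fell by 0.60 ± 0.10 (adjusted p = 0.000738, limma), just past the fold limit, and without TNC + vehicle replicate 2 or untreated replicate 1 the difference was -0.50 or -0.53 and the call was lost. With the inhibitor it was 0.67 ± 0.09 above TNC + vehicle (adjusted p = 0.000115, limma). E2f2 differed by -0.11. Rb1, the retinoblastoma gene, read 9.59, 9.39 and 9.43 in untreated cells, 9.09, 8.88 and 8.97 with TNC + vehicle, and 9.47, 9.65 and 9.40 with TNC + TLR4i. The TNC + vehicle arrays were lowest, with a difference of -0.49 that was under the fold limit.

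The D cyclins, which receive growth factor signals, were split. Ccnd1 read 9.40, 9.45 and 9.52 in untreated cells, 9.0, 8.98 and 8.92 with TNC + vehicle, and 9.32, 9.27 and 9.23 with TNC + TLR4i. Ccnd2 read 9.58, 9.49 and 9.84, then 10.10, 10.13 and 10.14, then 9.60, 9.47 and 9.60. With TNC + vehicle, Ccnd1 was thus lowest and Ccnd2 highest in all 3 arrays, at -0.49 and 0.49 from untreated, both with an adjusted p under 0.05 in limma and both under the fold limit. Without untreated replicate 3, Ccnd2 differed by 0.59 and was called.

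Ccnd3 had the largest difference of the 52 genes between TNC + TLR4i and untreated. It read 9.25, 9.04 and 9.05 in untreated cells, 9.02, 9.19 and 9.40 with TNC + vehicle, and 8.83, 8.85 and 8.57 with TNC + TLR4i. The inhibitor arrays were the lowest of the 9, and the difference from untreated of -0.36 had an adjusted p of 0.139 in limma. That value belongs to its brightest probe set, since the other two gave 0.08 and 0.18 in this comparison, and -0.43 and 0.20 with TNC + vehicle, where the brightest gave 0.09. Of the kinases, Cdk6 differed by 0.35 with TNC + vehicle and Cdk2 by -0.21. Cdk4 differed by -0.03 at its brightest probe set and by -0.35 and -0.33 at the other two (adjusted p = 0.00454 and 0.00929, limma). The cyclin E genes Ccne1 and Ccne2 differed by 0.26 and -0.32.

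For G2 and mitosis, 1 of 14 genes rose with TNC + vehicle and 1 fell, where 3.74% and 4.05% of all genes did. The median difference was -0.11. Mki67, which encodes the proliferation antigen Ki-67, a coat protein of mitotic chromosomes, read 8.86, 8.93 and 9.21 in untreated cells, 10.26, 10.42 and 10.30 with TNC + vehicle, and 9.12, 9.13 and 9.13 with TNC + TLR4i. All 3 TNC + vehicle values were above the 6 others. Mki67 rose by 1.32 ± 0.09, or 2.5-fold (adjusted p = 8.08e-07, limma), and was 2.30-fold lower with the inhibitor (adjusted p = 9.26e-08). With the inhibitor it differed from untreated by 0.12, with a 95% interval of -0.06 to 0.31.

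Several other genes used to mark dividing cells were not called. Top2a, which untangles replicated DNA, differed by -0.08, Cdk1, the mitotic kinase, by -0.06, and Ccna2, which encodes cyclin A2, by 0.01. Foxm1, the transcription factor of the G2 programme, differed by 0.16, and Birc5, of the chromosomal passenger complex, by -0.07. Each of these 5 had an adjusted p above 0.05 in limma. Tpx2, a spindle assembly factor, had the next highest difference in this role, at 7.18, 7.12 and 7.03 in untreated cells, 7.63, 7.53 and 7.66 with TNC + vehicle, and 7.03, 7.03 and 7.21 with TNC + TLR4i. Its TNC + vehicle arrays were highest, and its difference of 0.50 (adjusted p = 0.000266, limma) was under the fold limit. Its 3 other probe sets, all dimmer, gave 0.19, -0.06 and -0.01, with adjusted p-values of 0.114, 0.599 and 0.966 in limma.

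Aurkb, the kinase of the chromosomal passenger complex, read 8.05, 8.20 and 7.93 in untreated cells, 7.52, 7.19 and 7.31 with TNC + vehicle, and 8.03, 7.90 and 7.89 with TNC + TLR4i. The TNC + vehicle arrays were lowest. Aurkb fell by 0.72 ± 0.09 (adjusted p = 0.00015, limma). Against TNC + vehicle it was 0.60 ± 0.09 higher with the inhibitor (adjusted p = 0.000277, limma), and this call was lost without TNC + TLR4i replicate 1 or TNC + vehicle replicate 2, at 0.56 and 0.53. Ccnb2, Bub1, Kif11, Cdc20, Plk1 and Aurka, which act in mitotic entry, the spindle checkpoint and the spindle itself, differed by -0.24 to -0.13 and were not called. Ccnb2, which encodes cyclin B2, read 8.01, 8.00 and 8.02 in untreated cells, 8.02, 7.66 and 7.64 with TNC + vehicle, and 7.92, 7.95 and 7.93 with TNC + TLR4i. Bub1, a kinase of the spindle checkpoint, read 7.37, 7.41 and 7.47, then 7.31, 7.03 and 7.18, then 7.31, 7.44 and 7.36. In Ccnb2 replicate 1 with TNC + vehicle sat among the untreated values, and in Bub1 it was the highest of its group.

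The promoters of Mki67 and Cdk1 are shown because both genes mark dividing cells and only Mki67 was called. The windows follow the same scheme, both on the minus strand, with the CHR word TTTGAA in capitals beside the E2F and CCAAT words. The Mki67 window is at chr7:135716380-135716629 and the Cdk1 window at chr10:69352913-69353162.
Mki67: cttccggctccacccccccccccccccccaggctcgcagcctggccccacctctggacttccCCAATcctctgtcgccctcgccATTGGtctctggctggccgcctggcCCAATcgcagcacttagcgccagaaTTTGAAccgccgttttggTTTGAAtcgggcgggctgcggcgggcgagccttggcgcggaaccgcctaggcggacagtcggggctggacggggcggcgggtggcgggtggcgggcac
Cdk1: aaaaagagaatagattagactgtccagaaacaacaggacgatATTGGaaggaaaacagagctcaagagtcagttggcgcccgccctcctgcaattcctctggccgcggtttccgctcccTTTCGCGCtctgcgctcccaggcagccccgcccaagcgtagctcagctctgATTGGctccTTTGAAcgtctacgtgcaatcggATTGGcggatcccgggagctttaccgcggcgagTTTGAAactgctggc
Both windows hold 2 CHR words and 3 CCAAT words, and Cdk1 holds 1 E2F word as well. Among the G2 and mitosis genes, 10 of 14 had a window, and 6 of the 10 windows held a CHR word and 9 a CCAAT word, as did 16.0% and 33.8% of all windows. Of the 7 genes that fell with TNC + vehicle, 5 had a window, and 1 of their 7 windows held an E2F word. An annotated start need not be the main start of a gene, and E2f1 had a window at only 1 start. These counts therefore do not show that the promoter of a gene lacks a word.

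Different probe sets of a gene did not always give the same call. Gmnn, Cdkn2c and Mki67 rest on their only probe set. For Mcm7, 1 of the 3 other probe sets was also called lower with TNC + vehicle, and the 3 ranged from -0.82 to -0.48. For Cdt1 the 2 others gave -0.64, which was called, and 0.03. For E2f1 they gave -0.65, which was called, and -0.04. The other probe set of Cdkn1b gave -0.52 and that of Aurkb -0.54, neither called. In the comparison of the inhibitor with TNC + vehicle, they gave 0.35 for Cdkn1b and 0.24 for Aurkb (adjusted p = 0.131, limma), again not called. The brighter Aurkb probe set is of a class that the maker marks as able to bind other transcripts. So are the brightest ones of Mcm4, Mcm5, Rrm2, Cdk4, Ccne1 and Cdc20. Those of Mcm2, Mcm3, Mcm7 and Gins2 are of another class, which can match several transcripts. Of the genes not called by their brightest probe set, Rrm2 had another probe set that was called in the comparison of the inhibitor with TNC + vehicle, at 0.59, and a dim other probe set of Pola1 gave 0.16 with TNC + vehicle. The Ccnd2 probe sets all lay above 0 with TNC + vehicle against untreated, at 0.39 to 0.61 for the 6 others, of which 1 was called. In the comparison of the inhibitor with TNC + vehicle, others of Ccnd2 were called lower, at -0.59 and -0.60.

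To place these genes in their pathways, 121 further genes with the same roles were examined, of which 119 were measured. With TNC + vehicle, 9 fell and 4 rose, where 4.05% and 3.74% of all genes did, and their median difference was -0.13. With the inhibitor against TNC + vehicle, 10 rose and 4 fell, or 6 and 4 under cyclic loess, where 4.25% and 4.05% of all genes rose and fell. In TNC + TLR4i against untreated 0 were called by limma, where 0.258% of all genes were, and at an unadjusted p under 0.05 there were 10 higher genes and 3 lower genes, where 4.83% and 4.63% of all genes met that limit. No further licensing gene was called in any comparison, which covers Orc2 to Orc5, Mcm8 to Mcm10, Cdc7, Dbf4 and Mcmbp.

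Of the further fork and nucleotide genes, Pole2, a subunit of DNA polymerase epsilon, fell with TNC + vehicle by 0.66 ± 0.07 (adjusted p = 3.33e-05, limma). Timeless, a component of the fork protection complex, rose by 0.75 ± 0.07. Dck, the deoxycytidine kinase of nucleotide salvage, read 11.18, 11.49 and 11.22 in untreated cells, 12.25, 12.36 and 12.19 with TNC + vehicle, and 10.56, 10.92 and 10.84 with TNC + TLR4i. No groups overlapped, with TNC + vehicle highest and the inhibitor group lowest. Dck rose by 0.96 ± 0.09 with TNC + vehicle (adjusted p = 8.7e-06, limma). It was 0.53 below untreated with the inhibitor (adjusted p = 0.0392), under the fold limit, and it was the only gene, of the 52 and the 119, with an adjusted p under 0.05 in that comparison.

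Among the further G1 genes, the partners of E2F moved in different directions. Tfdp2, which encodes the E2F dimerisation partner DP2, read 8.30, 8.26 and 8.37 in untreated cells, 7.08, 6.97 and 6.89 with TNC + vehicle, and 8.46, 8.58 and 8.58 with TNC + TLR4i. Its TNC + vehicle arrays were far below the rest, and it fell by 1.33 ± 0.07 (adjusted p = 1.26e-07, limma). Of the pocket proteins related to the retinoblastoma protein, Rbl1, which encodes p107, read 8.79, 8.93 and 8.60, then 9.74, 9.95 and 9.93, then 8.77, 8.78 and 8.78. Rbl2, which encodes p130, the pocket protein of resting cells, read 9.56, 9.54 and 9.35, then 8.63, 8.56 and 8.59, then 9.44, 9.51 and 9.45. Rbl1 was thus highest and Rbl2 lowest with TNC + vehicle, with changes of 1.10 ± 0.09 and -0.89 ± 0.07. The antiproliferative genes Ccng2 and Tob1 fell by 0.94 and 0.69.

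For the 48 further G2 and mitosis genes, the difference with TNC + vehicle was below 0 in 44, where it was below 0 in 48.3% of all genes, and the median was -0.19. Of the 48, 4 fell and 1 rose, where 4.05% and 3.74% of all genes did. With no minimum fold 17 were lower and 1 higher at an adjusted p under 0.05, where 16.0% and 12.1% of all genes were. The genes that fell were Cenpa, the centromeric histone (-0.77), Ect2, of cytokinesis (-0.75), Cdc25b, a phosphatase that activates mitotic kinases (-0.66), and Stmn1, a microtubule destabiliser (-0.65). Pttg1, which encodes securin, the guard of sister chromatid separation, rose by 0.71 ± 0.07 (adjusted p = 2.41e-05, limma). With the inhibitor against TNC + vehicle, 45 of the 48 were above 0, as were 50.5% of all genes, and the comparison shares the TNC + vehicle arrays. Rpa1 and Cks2 were called only in that comparison, at 0.59 each, and their changes with TNC + vehicle against untreated were -0.52 and -0.48.

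**Figure D3:**
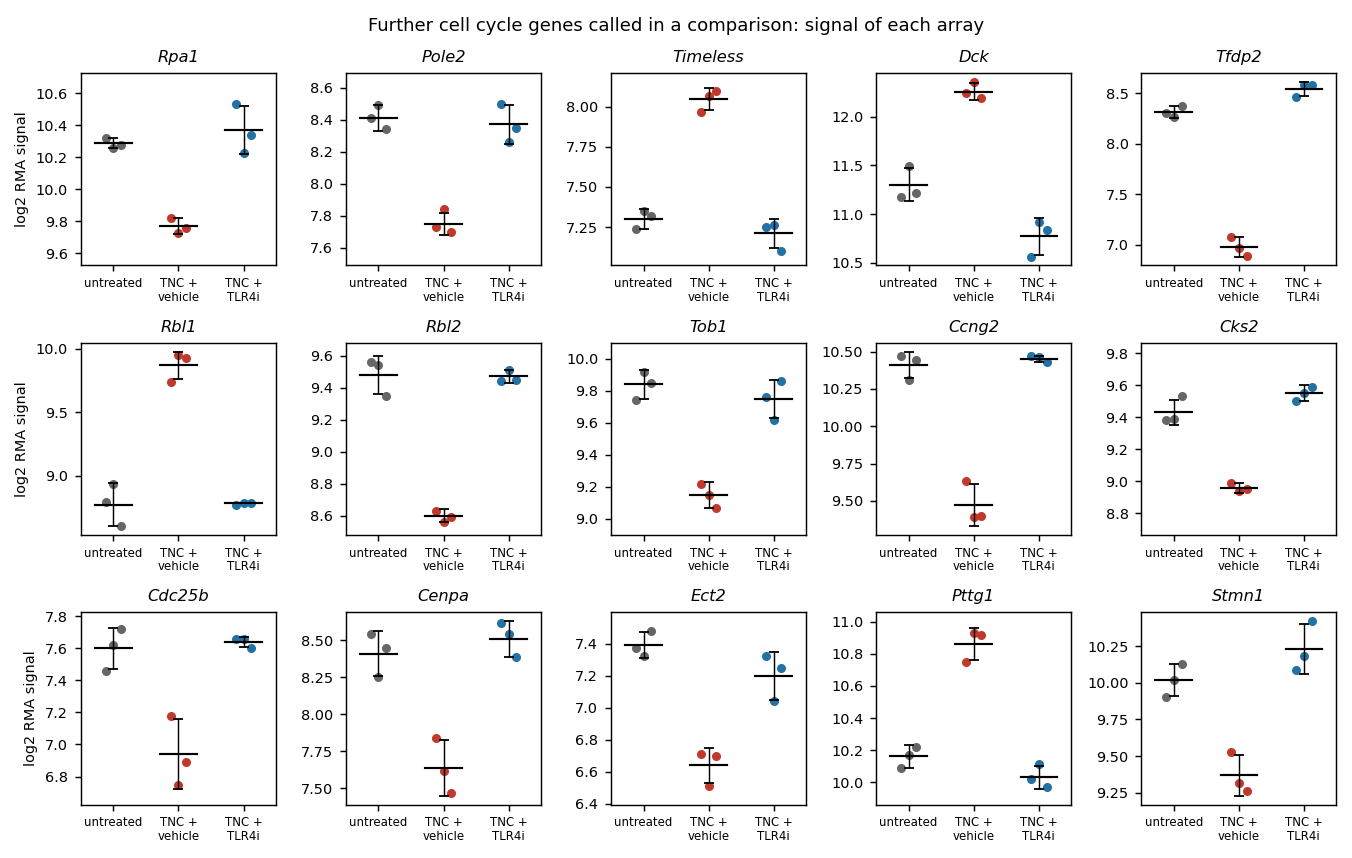
Log2 signal in each array for the 15 further cell cycle genes called in a comparison, with points for arrays, a bar for the group mean and whiskers for the SD (n = 3), on axes that differ between genes and do not start at 0. The TNC + vehicle arrays lie above the 6 others for Timeless, Dck, Rbl1 and Pttg1 and below them for the other 11 genes.

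TNC + vehicle replicate 1 stood apart from the other arrays of its group in the mitotic genes. It was the highest of the 3 arrays for 8 of the 14 G2 and mitosis genes, or 57.1%, against 35% of all genes, and lay a median of 0.17 above the mean of the other two. Cdc20, an activator of the anaphase-promoting complex, read 8.49 in that array and 8.07 and 8.14 in the others. Among the 48 further mitotic genes it was highest for 35, or 72.9%, with a median of 0.13. For the other roles the median lay between -0.03 and 0.06. Such shifts were not limited to that array. Untreated replicate 2 was the highest of its group for 8 of the 9 fork genes, or 88.9%, against 38.1% of all genes. Those genes lay a median of 0.1 above the mean of the other untreated arrays. Of the 26 further fork genes, 18 were highest in untreated replicate 2, or 69.2%.

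Some markers of other cell types were also higher in TNC + vehicle replicate 1. Of 8 endothelial markers, 7 were highest in it, by a median of 0.64, and their mean level was 7.65 there, against 7.07 and 7.04 in the other TNC + vehicle arrays and 6.79 to 6.86 in untreated cells and 6.76 to 6.77 with TNC + TLR4i. The endothelial genes Cdh5, Cldn5 and Emcn read 7.56, 7.72 and 7.41 in it and at most 6.89 in any other array. Kdr, the exception, read 9.0 in it and 9.58 and 9.59 in the others, against 7.63 to 7.84 in untreated cells, and was called higher with TNC + vehicle. With the inhibitor against TNC + vehicle, Kdr (-1.96) and Cdh5 (-0.63) were called lower. For Cdh5, TNC + vehicle replicate 2, at 6.89, was also above all untreated values. Vwf read 8.25 in TNC + vehicle replicate 1, within its untreated values of 8.16 to 8.36. Of 6 fibroblast markers, 5 were highest of the group in TNC + vehicle replicate 1, by a median of 0.32. Their mean level was 10.49 there, against 10.24 to 10.38 in untreated cells. Col1a1, Dcn and Pdgfrb in that array lay above all untreated values. Col1a2 (13.20) and Col3a1 (11.83) did not, with untreated values of 13.22 to 13.37 and 11.78 to 12.28. Of 6 progenitor markers, 4 were highest of the group in that array, by 0.21. The median was -0.22 for 7 neutrophil precursor markers, -0.07 for 4 erythroid and for 8 macrophage markers, and 0.02 for 6 lymphocyte markers. The part of these cells in the mitotic signal was not tested.

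Without TNC + vehicle replicate 1, the lower mitotic genes became more numerous. This array was singled out because it was high for these genes, so the increase is partly built in. With no minimum fold, 6 of the 14 genes were lower with TNC + vehicle at an adjusted p under 0.05, where 2 were with all arrays, while the share over all genes was 15.8% and 16.0%. The 6 were Aurkb (-0.81), Ccnb2 (-0.36), Bub1 (-0.31), Cdc20 (-0.31), Plk1 (-0.28) and Kif11 (-0.26). Of the 48 further mitotic genes 23 were lower, where 17 were with all arrays. The calls did not change for the 14 genes, with Aurkb lower and Mki67 higher, where 4.56% of all genes were lower and 3.92% higher. Mki67 differed by 1.36 in that fit. Leaving out any other array of these groups gave 1 lower gene of the 14 with no minimum fold, fewer than with all arrays.

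**Figure D4:**
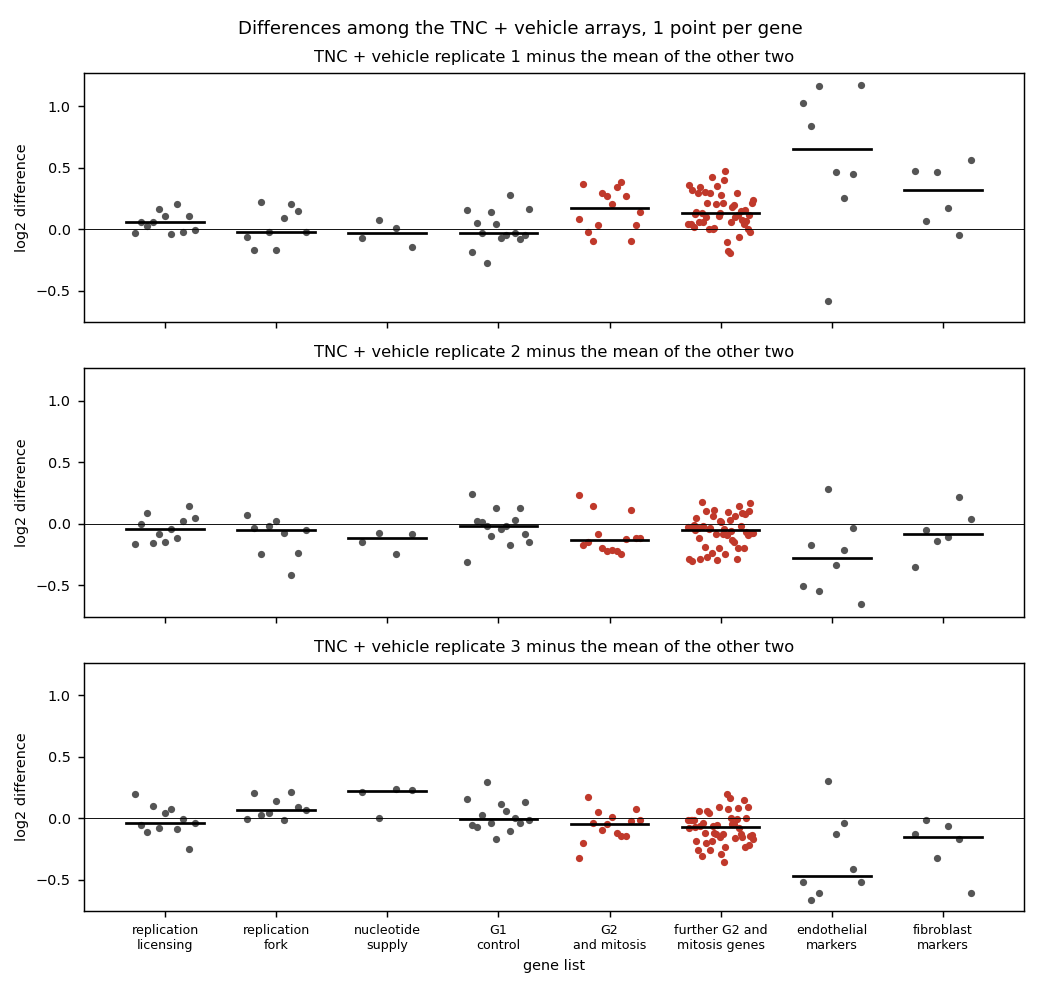
Signal of each TNC + vehicle array minus the mean of the other two arrays of that group, with a point for each gene, a bar for the median of each list, and G2 and mitosis lists in red. In replicate 1 the G2 and mitosis lists have medians of 0.17 and 0.13 and the endothelial markers 0.64, and the licensing, fork, nucleotide and G1 lists lie between -0.03 and 0.06.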

How the data were processed

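Gene expression was measured on 9 Affymetrix mouse arrays, 3 per group. The authors used Chipster for robust multiarray averaging (RMA), and the deposited values are its log2 signals, given for each probe set in each array. RMA subtracts a modelled background, forces all arrays to share a distribution and combines the probes of a set. RMA is known to compress the changes of dim genes and would hide a change in total RNA. The annotation tied 34945 of 45037 probe sets to 1 gene, 932 to several and 9160 to none, and 64 array controls were left out. RefSeq promoter windows were found for 40 of the 52 genes.

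The test was limma 3.58.1 (R 4.3.3), two-sided, on the 6 arrays of each pair of groups, with Benjamini-Hochberg adjustment over 45037 probe sets. Errors given with ± are SEs of differences from that fit. A gene stands for its brightest probe set by the mean of 9 arrays. The number of arrays limits the precision. The test was run on simulated data first. Promoter motifs were counted in Python 3.11.15. By rule, values per array are given for called genes among the 52 and for up to 3 uncalled ones per role with the largest change, and the further genes and markers that were called, or stood apart in 1 array, are named. Ccnd3, Pcna, Cdc20 and the further genes given per array were chosen after their values were seen. The genes, lists and motifs were chosen with earlier results of these data known. The alternatives were a shared fit of 9 arrays, a block for replicate number, a filter on dim probe sets (which kept 49 of the 52 genes and 114 of the 119 further genes), cyclic loess, trend and robust options of eBayes, averaged probe sets, other thresholds, and leaving out each array.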

Additional observations from a re-analysis of the deposited data

How the results depend on the processing

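The 9 and 9 genes called in the comparisons with TNC + vehicle stayed at 7 to 10 of the 52 under 1 fit over all arrays, a dim filter, cyclic loess, other eBayes settings, an adjusted p under 0.01 and the mean of probe sets. No sign turned. With no minimum fold the counts were 26 and 26, and with a 2-fold minimum 3 and 4. Leaving out 1 array at a time gave 8 to 11 for TNC + vehicle against untreated, 7 to 13 for TNC + TLR4i against TNC + vehicle, and 0 to 0 for TNC + TLR4i against untreated. Of the further genes, 13 and 14 were called. That became 7 and 9 with the mean of probe sets, 46 and 53 with no minimum fold, 2 and 3 with a 2-fold minimum, and 12 to 14 and 12 to 17 with 1 array left out. For TNC + TLR4i against untreated, the count of 0 became 1 with no minimum fold, and 0 to 1 with 1 array left out, the 1 being a nucleotide gene that was lower without TNC + TLR4i replicate 2. With cyclic loess the calls in TNC + TLR4i against TNC + vehicle split into 6 higher and 4 lower for the 52 genes, where 7 and 2 were reported, and 6 and 4 for the further genes, where 10 and 4 were reported. With the mean of probe sets, Cdt1 (-0.51) and E2f1 (-0.43) were not called against untreated, nor E2f1 (0.42) and Aurkb (0.42) in the comparison with the inhibitor, where Aurkb was also lost with cyclic loess (0.58) and E2f1 without TNC + vehicle replicate 2 (0.57). The cause was not tested. Correlations of same-numbered arrays, taken on deviations from group means over all probe sets, ran from -0.096 to 0.136. With 3 arrays a group and many dim probe sets, these values cannot show whether replicate numbers paired the arrays. With the replicate block the counts were 9, 9 and 0 for the 52 genes and 13, 14 and 0 for the further genes. The 3 arrays a group and the floor under dim probe sets limit what can be resolved.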
